A study of Homo sapiens with 12 samples.

Results

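The aryl hydrocarbon receptor (AhR) and genes it regulates are described here in the triple-negative breast cancer line MDA-MB-468, engineered so that doxycycline turns on estrogen receptor beta (ERβ1, gene ESR2). The 8 members were found by gene symbol among 23228 genes in the deposited tables, and all 8 passed the filter on low counts that left 14541 genes for testing. They are the receptor AHR, its partner ARNT, the repressors AHRR and TIPARP, and the enzymes CYP1A1, CYP1B1, ALDH3A1 and NQO1. They were chosen by the level of CYP1A1, already known to differ strongly between libraries carrying different tags in their file names, so differences between those tags are described for all members and not tested.

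RNA was sequenced in 4 groups of 3 libraries. The induced E2 group had 50 ng/mL doxycycline for 48 hours and then 10 nM 17β-estradiol (E2) for 4 hours. The induced vehicle group had the same doxycycline and then 0.1% DMSO for 4 hours. The uninduced E2 and uninduced vehicle groups had the same E2 or DMSO without doxycycline. All groups carried the inducible receptor and were grown without phenol red in charcoal-stripped serum, at 10% for the 3 days beforehand and at 5% during the experiment. No group had doxycycline without the inducible receptor, so an effect of doxycycline and one of ERβ1 cannot be told apart. The labels do not state that replicates were separate cultures, and the p-values therefore cover the spread between these libraries, which may be technical.

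AhR is a ligand-activated transcription factor held in the cytoplasm by a chaperone complex that includes HSP90 and PTGES3. Ligands such as dioxins, polycyclic aromatic hydrocarbons and tryptophan products send it to the nucleus, where it pairs with ARNT and binds DNA at xenobiotic response elements that share the core GCGTG. CYP1A1 is its most inducible target, CYP1B1 is the related hydroxylase abundant in breast cells, and both enzymes oxidise estradiol as well as foreign aromatic compounds. AHRR, which competes for ARNT, and TIPARP, an ADP-ribosyltransferase that acts on AhR, are targets that feed back to restrain the receptor.

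Total expected counts ranged from 7889310 to 33326849 per library. The file names of the libraries numbered 2 and 3 carry the tag 11.16 and those numbered 1 the tag 10.31, called the later and earlier tag here. The labels do not say what the tags mean, so that order is assumed. The 8 later-tag libraries held 18997579 to 33326849 counts and the 4 earlier-tag libraries 7889310 to 17965526. Sequencing lane followed replicate number in every library, and the later tag covers numbers 2 and 3. A difference between tags thus cannot be told apart from one of lane, replicate number or depth. ESR2 averaged 104 ± 10.2 CPM (TMM-scaled CPM, the unit of all levels unless TPM is named, with the SD over n = 3 libraries) in induced E2 cells and 121 ± 11.7 CPM in induced vehicle cells. It averaged 1.61 ± 0.569 CPM in uninduced E2 cells and 1.30 ± 0.216 CPM in uninduced vehicle cells. All 7 epithelial markers checked were at 51.9 CPM or more in every library, EGFR at 2170 to 2650 CPM. Of the 3 receptor genes checked, PGR reached at most 0.155 CPM and ESR1 6.12 CPM, while ERBB2 was at 66.2 to 86.3 CPM. The fibroblast marker DCN was at 0 counts in all 12 libraries, the endothelial CDH5 reached at most 0.375 CPM, and the immune PTPRC at most 0.302 CPM. The highest of the 9 markers of other cell types were COL1A1 at 19.2 to 26.3 CPM and CD68 at 4.37 to 8.93 CPM.

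To show the AhR core motif near CYP1A1 and both feedback genes, the 250 bases before the transcription start of each are given from RefSeq (GRCh38.p14, matched by symbol, a later build than the hg19 of the deposited counts). Capitals mark the core GCGTG or its reverse complement CACGC. The CYP1A1 stretch is chr15:74725529-74725778 on the minus strand, with 1 core beginning 57 bases before the start. For AHRR and TIPARP the most upstream listed start was taken, chr5:321464-321713 and chr3:156674340-156674589, both on the plus strand. AHRR had 1 core at 30 bases before the start, and TIPARP had 2 on the opposite strand, at 208 and 142 bases.
CYP1A1: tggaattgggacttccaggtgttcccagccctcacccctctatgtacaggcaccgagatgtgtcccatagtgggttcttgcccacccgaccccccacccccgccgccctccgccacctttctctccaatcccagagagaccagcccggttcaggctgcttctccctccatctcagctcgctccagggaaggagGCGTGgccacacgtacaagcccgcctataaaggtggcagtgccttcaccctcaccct
AHRR: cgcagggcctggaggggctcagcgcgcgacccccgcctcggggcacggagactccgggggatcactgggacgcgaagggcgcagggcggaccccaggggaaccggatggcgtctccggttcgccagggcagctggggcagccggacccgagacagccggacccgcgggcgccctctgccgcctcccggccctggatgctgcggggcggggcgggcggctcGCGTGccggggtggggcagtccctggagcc
TIPARP: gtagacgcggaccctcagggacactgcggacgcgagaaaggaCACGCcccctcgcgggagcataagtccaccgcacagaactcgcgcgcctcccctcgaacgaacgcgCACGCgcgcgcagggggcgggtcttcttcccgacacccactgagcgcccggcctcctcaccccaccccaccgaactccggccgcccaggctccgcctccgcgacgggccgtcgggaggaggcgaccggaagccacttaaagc
A promoter entry was matched for 6 of 8 members, with 9 start sites in all. The core was searched on both strands and was present in 32.2% of 35114 promoter stretches of the same length and in 4 of the 9 member stretches, those of CYP1A1, both AHRR starts and the most upstream TIPARP start. It was in neither of the other TIPARP stretches nor in those of AHR, ARNT and NQO1. The longer form TNGCGTG, which contains the core, was present in 4.52% of all stretches and, among members, before the most upstream start of AHRR. The palindromic estrogen response element, GGTCA and TGACC with any 3 bases between, was in 0.0399% of all stretches and in none of the 9 member stretches. The antioxidant response element TGACNNNGC was in 10.9% of all stretches and, among members, before ARNT. These matches describe letters in a short window and say nothing about binding.

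Levels were compared between genes on the length-corrected TPM scale, taken from the deposited fractions. In uninduced vehicle cells NQO1 was highest at 179 ± 3.19 TPM, followed by AHR at 155 ± 13 TPM and CYP1B1 at 153 ± 32.1 TPM. AHR and CYP1B1 overlapped. CYP1A1 stood at 36.8 ± 27.5 TPM, a range of 20.3 to 68.5 that included ARNT at 22.7 ± 1.13 TPM. TIPARP at 14.8 ± 1.85 TPM overlapped ALDH3A1 at 12.8 ± 1.47 TPM, and AHRR was lowest at 1.02 ± 0.172 TPM. AHR transcripts were thus several-fold more abundant than those of the partner ARNT.

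With E2 in induced cells, TIPARP rose, and AHR and NQO1 fell, which is 3 of 8 members called where 16.5% of all tested genes were called (9.85% higher and 6.61% lower). That split depends on scaling, with 1258 genes higher and 1206 lower under upper-quartile scaling in place of 1433 and 961. Calls required adjusted p-values below 0.05 in edgeR's quasi-likelihood test with Benjamini-Hochberg adjustment over all tested genes. Same-numbered libraries varied together across groups, so the replicate number was also fitted as a block, and values from that fit are given where it changed a call. With the block, CYP1A1 and CYP1B1 were called lower as well, making 5 of 8 members against 23.8% of all genes (13.5% higher and 10.3% lower). For doxycycline without E2, AHR and ALDH3A1 fell, 2 of 8 members against 3.81% of all genes (2.44% higher and 1.37% lower). The block added lower CYP1A1 and higher TIPARP and NQO1, making 5 of 8 against 10% (5.54% higher and 4.48% lower). For doxycycline in the presence of E2, TIPARP rose and AHR, CYP1B1 and ALDH3A1 fell, 4 of 8 members against 28% of all genes (15% higher and 13% lower, or 1799 genes higher and 2679 lower with upper-quartile scaling in place of 2184 and 1894). The block added lower CYP1A1 and higher AHRR, making 6 of 8 against 37.3% (19.1% higher and 18.2% lower). E2 in uninduced cells called 0 of 8 members and 0% of all genes. The median log2 change over the 8 members was −0.08, −0.11, −0.23 and −0.02 for these comparisons in the order given, beside 0, 0, −0.01 and 0 over all tested genes.

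**Figure D1:**
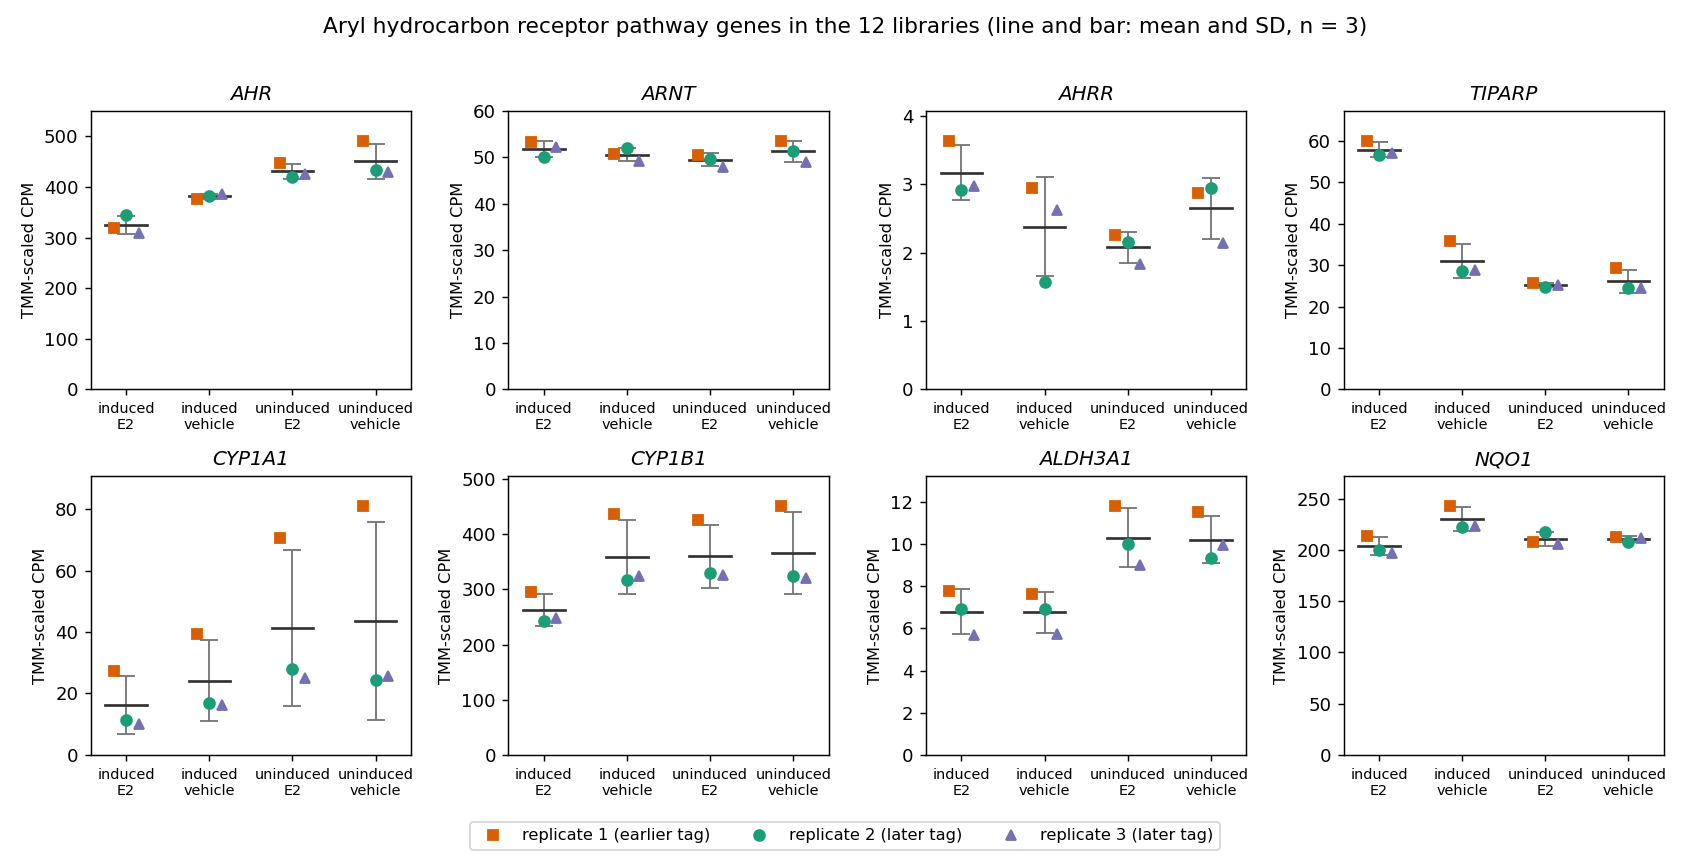
Level of each gene in every library (points, scaled CPM on a linear axis from 0), with the mean and SD of each group of 3 as line and bar. TIPARP sits at 56.5 to 60.1 CPM in the induced E2 libraries, above every other library, and the earlier-tag square is the highest point of every group for CYP1A1 and CYP1B1.

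AHR, which encodes the receptor, fell with induction and again with E2 in induced cells. It had 320, 344 and 310 CPM in induced E2 libraries (replicates 1, 2 and 3, the order used throughout), and 377, 382 and 387 CPM in induced vehicle libraries. Uninduced E2 libraries had 447, 419 and 426 CPM, and uninduced vehicle libraries 492, 433 and 430 CPM. Neither induced group overlapped its uninduced counterpart, and the induced E2 libraries all lay below the induced vehicle libraries. With E2, induced cells had AHR at 0.849 of the vehicle level (log2 −0.24, SE 0.05, adjusted p = 0.00524). Doxycycline lowered it by the same ratio without E2 (log2 −0.24, SE 0.05, adjusted p = 0.0187) and to 0.754 with E2 (log2 −0.41, SE 0.05, adjusted p = 3.11e-05). The last call held in all 23 alternatives run, while the first ended without the libraries numbered 3 (0.17). The middle call ended without uninduced vehicle replicate 1 (0.0537), without induced vehicle replicate 1 (0.0577), 2 (0.0586) or 3 (0.0527), and without the libraries numbered 2 (0.125) or 3 (0.153). It held with the replicate block. In bulk RNA, a lower level in every cell and fewer cells with the transcript cannot be told apart.

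ARNT, the partner that AhR shares with hypoxia-inducible factors, stayed between 48 and 53.6 CPM in all libraries. It averaged 51.8 ± 1.65 CPM in induced E2 cells, 50.6 ± 1.41 in induced vehicle cells, 49.5 ± 1.32 in uninduced E2 cells and 51.3 ± 2.31 in uninduced vehicle cells. None of the comparisons called it. The 95% confidence interval for E2 in induced cells ran from −0.07 to 0.13 log2, and that for doxycycline with E2 from −0.03 to 0.16 log2.

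TIPARP, the feedback ADP-ribosyltransferase, had the clearest change. It had 60.1, 56.5 and 57.2 CPM in induced E2 libraries and 35.9, 28.6 and 28.9 CPM in induced vehicle libraries. Uninduced E2 libraries had 25.6, 24.8 and 25.1 CPM and uninduced vehicle libraries 29.4, 24.5 and 24.4 CPM. All 3 induced E2 libraries lay above the other 9. E2 in induced cells raised TIPARP 1.88-fold (log2 0.91, SE 0.08, adjusted p = 1.19e-06) and doxycycline with E2 raised it 2.30-fold (log2 1.20, SE 0.08, adjusted p = 3.13e-08). Within same-numbered sets the E2 ratio in induced cells was 1.67, 1.98 and 1.98. Doxycycline without E2 gave 0.27 log2 (SE 0.08, adjusted p = 0.111), which was called with the block (0.26 log2, adjusted p = 0.00675), without uninduced vehicle replicate 1 (0.0445) and in the later-tag libraries alone (0.0106). It stayed uncalled when other libraries or replicate numbers were left out (adjusted p up to 0.562). The E2 change in induced cells exceeded that in uninduced cells by 0.93 log2 (SE 0.12, adjusted p = 0.000103), and by 0.94, 0.97 and 0.94 log2 in the sets numbered 1, 2 and 3.

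AHRR, the competing repressor, was a rare transcript with 23.0 to 77.9 counts per library. It had 3.64, 2.91 and 2.97 CPM in induced E2 libraries and 2.95, 1.57 and 2.63 CPM in induced vehicle libraries. In uninduced E2 libraries it had 2.26, 2.15 and 1.83 CPM, and in uninduced vehicle libraries 2.87, 2.95 and 2.14 CPM. The induced E2 libraries lay above the uninduced E2 libraries and overlapped both vehicle groups. For doxycycline with E2 the difference was 0.60 log2 (SE 0.21, adjusted p = 0.0503). That value sat at the threshold and was called with the block (0.59 log2, adjusted p = 0.0201), without uninduced vehicle replicate 3 (0.0494), without induced vehicle replicate 1 (0.0367) or 2 (0.0165), in the fit to the compared groups alone (0.0226), with RLE scaling (0.0495), with no filter (0.0499) and with the stricter filter (0.046). The difference stayed uncalled when other libraries or replicate numbers were left out (adjusted p up to 0.25). For E2 in induced cells AHRR gave 0.48 log2 (SE 0.22, adjusted p = 0.179, and 0.0889 with the block). The neighbouring gene PDCD6 is listed separately, and reads joining it to AHRR cannot be placed from these tables.

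CYP1A1, the main inducible enzyme of the pathway, differed most between file tags and, within each tag, was lower after induction. The later-tag libraries had 11.3 and 10.2 CPM in induced E2 cells, 16.9 and 16.4 in induced vehicle cells, 28.0 and 25.2 in uninduced E2 cells, and 24.3 and 25.8 in uninduced vehicle cells. The earlier-tag library of each group had 27.2 CPM in induced E2, 39.3 in induced vehicle, 70.8 in uninduced E2 and 81.1 in uninduced vehicle cells. Both tags thus gave the same order of induced E2, then induced vehicle, then the uninduced groups, with the earlier-tag induced E2 library near the later-tag uninduced ones. Without regard to tag, the groups overlapped.

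Without the block, CYP1A1 had wide intervals and no call. E2 in induced cells gave −0.54 log2 (SE 0.58, adjusted p = 0.628), doxycycline without E2 −0.76 log2 (SE 0.55, adjusted p = 0.587) and doxycycline with E2 −1.35 log2 (SE 0.54, adjusted p = 0.0801). With the replicate block the same 3 values were −0.60 (SE 0.09, adjusted p = 2.28e-05), −0.75 (SE 0.08, adjusted p = 1.05e-06) and −1.34 log2 (SE 0.08, adjusted p = 2.80e-11). The same-numbered ratios of E2 to vehicle in induced cells were 0.693, 0.666 and 0.624. For doxycycline without E2 they were 0.485, 0.698 and 0.635, and with E2 0.385, 0.403 and 0.407. Every one of these 9 ratios was below 1. The later-tag libraries, 2 per group, were also fitted alone without a block. The 3 comparisons then gave −0.63, −0.59 and −1.31 log2 (adjusted p = 1.75e-05, 2.20e-05 and 1.62e-10). These libraries are also part of the blocked fit. The earlier tag holds 1 library per group and allows no test of its own. Doxycycline with E2 was also called without the block when uninduced vehicle replicate 1 (0.0381) or induced E2 replicate 1 (0.0345) was left out, and when the fit held only the groups compared (0.0445). This comparison stayed uncalled when other libraries or the libraries numbered 2 or 3 were left out (adjusted p up to 0.326).

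In uninduced cells the E2 ratios of CYP1A1 were 0.873, 1.15 and 0.975, and the fitted change was −0.01 log2 with the block (95% confidence interval −0.15 to 0.14), against −1.05 to 1.15 log2 without it. The difference between the E2 changes in induced and uninduced cells was −0.59 log2 in both fits, with an adjusted p of 0.782 without the block, 0.000663 with it and 9.69e-05 in the later-tag libraries alone. CYP1A2, the neighbouring and closely related gene that could share reads with CYP1A1, averaged at most 0.892 CPM in any group.

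**Figure D2:**
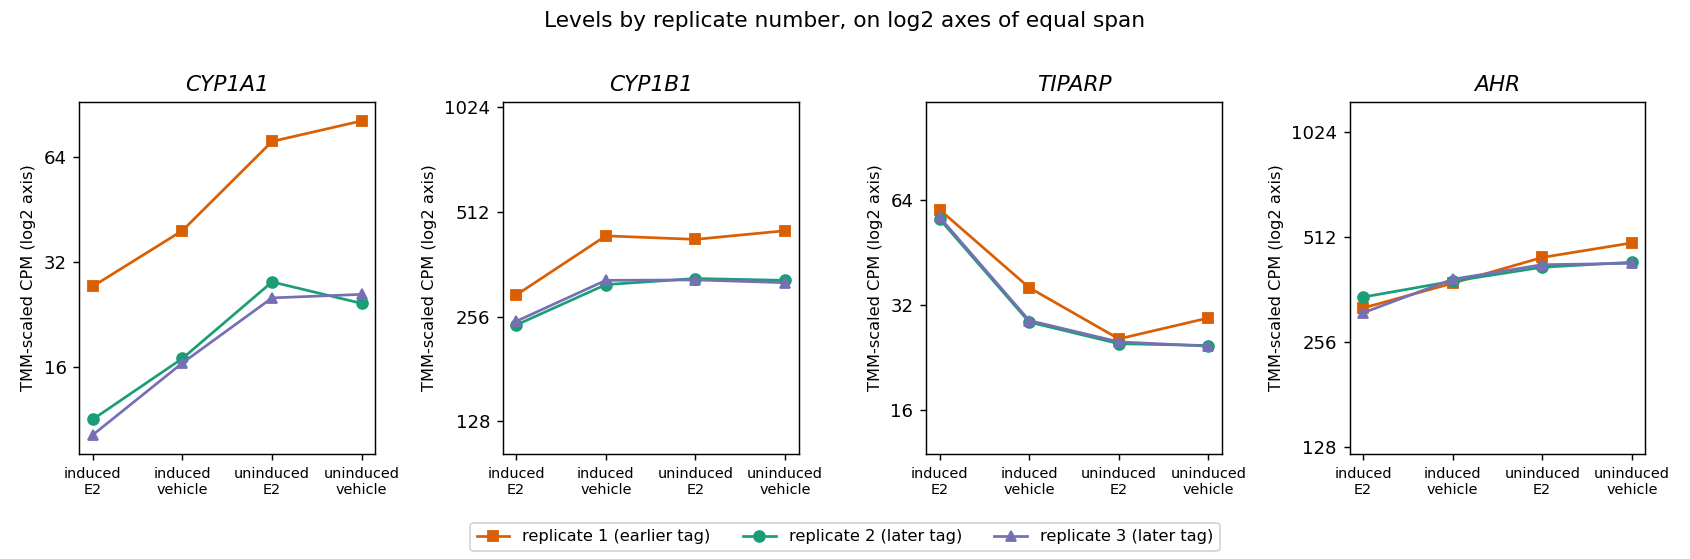
Scaled CPM of CYP1A1, CYP1B1, TIPARP and AHR by group, with 1 line per replicate number, on log2 axes of equal span. For CYP1A1 the earlier-tag line runs above both later-tag lines in all groups, and each line is lower in induced E2 than in induced vehicle cells.

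CYP1B1, the related hydroxylase, was lower with E2 in induced cells, with no difference called for induction alone. It had 295, 242 and 248 CPM in induced E2 libraries, against 436, 316 and 325 CPM in induced vehicle libraries. Uninduced E2 libraries had 426, 329 and 326 CPM, and uninduced vehicle libraries 451, 325 and 320 CPM. Replicate 1 was the highest in every group, and the induced E2 libraries lay below all the others. For E2 in induced cells the change was −0.45 log2 (SE 0.15, adjusted p = 0.0533). It was called with the block (−0.44 log2, SE 0.04, adjusted p = 1.01e-08), in the later-tag libraries alone (−0.39 log2, adjusted p = 1.73e-08), in the fit to the compared groups alone (0.0297), with upper-quartile scaling (0.0423), with no filter (0.0322), and without uninduced vehicle (0.0225), uninduced E2 (0.0343) or induced E2 (0.0394) replicate 1. The change stayed uncalled with DESeq2 (0.12), limma-voom, RLE scaling and the stricter filter. It was also uncalled without induced vehicle replicate 1 (−0.29 log2, 0.197), and without the libraries numbered 2 (0.205) or 3 (0.233). Leaving out any other single library left it uncalled too. Doxycycline with E2 lowered CYP1B1 to 0.727 of the uninduced E2 level (log2 −0.46, SE 0.15, adjusted p = 0.032). That call ended with DESeq2 (0.0772), without uninduced E2 replicate 1 (0.132), without induced E2 replicate 2 (0.112) or 3 (0.105), and without the libraries numbered 2 (0.143) or 3 (0.147), while the block kept it (3.35e-09). Doxycycline without E2 gave −0.02 log2, with a 95% confidence interval of −0.10 to 0.06 log2 in the blocked fit. The E2 changes in induced and uninduced cells differed by −0.44 log2 (adjusted p = 0.281, and 3.32e-06 with the block).

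ALDH3A1, an aldehyde dehydrogenase, was lower in both induced groups, with no difference seen between E2 and vehicle. It had 7.79, 6.92 and 5.66 CPM in induced E2 libraries and 7.62, 6.92 and 5.73 CPM in induced vehicle libraries. Uninduced E2 libraries had 11.8, 10.0 and 8.98 CPM and uninduced vehicle libraries 11.5, 9.33 and 9.93 CPM. All 6 induced libraries lay below all 6 uninduced libraries. Doxycycline lowered ALDH3A1 to 0.663 with E2 (log2 −0.59, SE 0.13, adjusted p = 0.00403), a call that ended without the libraries numbered 2 (0.0714). Without E2 the factor was 0.670 (log2 −0.58, SE 0.14, adjusted p = 0.035). That second call held with the block (0.000199). It ended without uninduced vehicle replicate 1 (0.0864), 2 (0.0638) or 3 (0.113), induced vehicle replicate 2 (0.0879) or 3 (0.141), uninduced E2 replicate 2 (0.0523) or induced E2 replicate 2 (0.0514), and without the libraries numbered 2 (0.273) or 3 (0.299). E2 in induced cells gave 0.01 log2 (95% confidence interval −0.30 to 0.32).

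NQO1, a quinone reductase driven by NRF2 (gene NFE2L2) as well as by AhR, fell slightly with E2 in induced cells. It had 214, 200 and 197 CPM in induced E2 libraries and 243, 222 and 223 CPM in induced vehicle libraries, with no overlap. The uninduced E2 libraries had 208, 218 and 206 CPM and the uninduced vehicle libraries 213, 208 and 212 CPM. NQO1 fell to 0.887 of its vehicle level with E2 in induced cells (log2 −0.17, SE 0.04, adjusted p = 0.0135). The call ended without induced E2 replicate 2 (0.06) or 3 (0.0701) and without the libraries numbered 2 (0.124) or 3 (0.185). Doxycycline without E2 gave 0.12 log2 (SE 0.04, adjusted p = 0.177, and 0.0411 with the block), and with E2 −0.05 log2 (adjusted p = 0.429, and −0.10 log2 at 0.0322 in the later-tag libraries alone). The E2 change differed between induced and uninduced cells by −0.17 log2, with an adjusted p of 0.117 without the block, 0.022 with it, 0.014 in the later-tag libraries and 0.0476 without induced E2 replicate 1. With other libraries or replicate numbers left out it stayed uncalled (adjusted p up to 0.577).

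**Figure D3:**
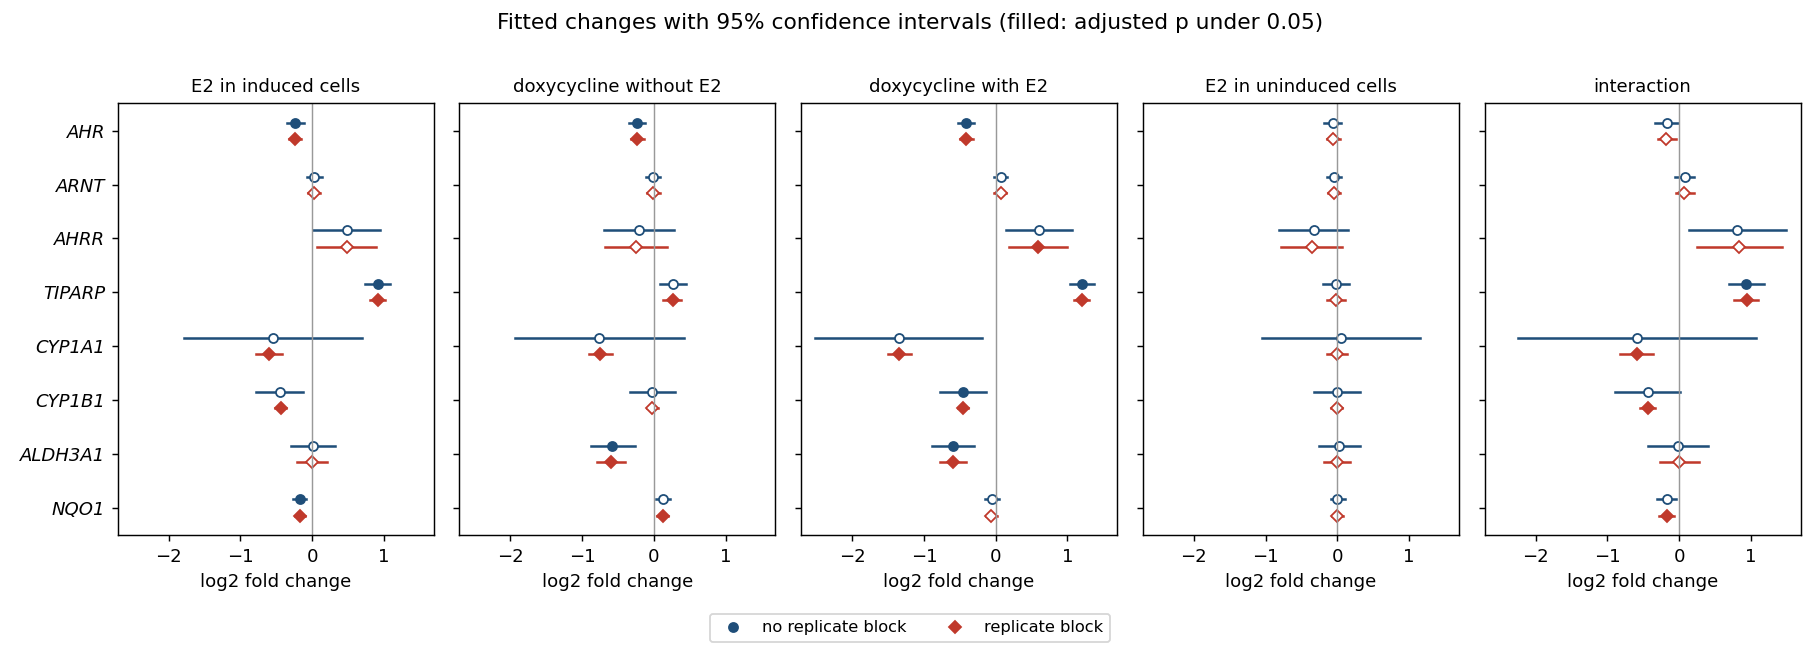
Fitted log2 change of each gene in the 4 comparisons and in the difference of the E2 changes (interaction), with 95% confidence intervals, from the fit without the replicate block (circles) and with it (diamonds); filled symbols have an adjusted p under 0.05. The CYP1A1 estimates differ little between fits, at −1.35 and −1.34 log2 for doxycycline with E2, while its intervals narrow with the block.

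Without induced ERβ1, E2 left no detectable change in the 8 genes. edgeR called 0 of 14541 genes for this comparison, 227 had an unadjusted p under 0.05, limma-voom called 0 and DESeq2 called 1. In the blocked fit, which called 0 genes with 451 at an unadjusted p under 0.05, the 95% confidence intervals were −0.09 to 0.06 log2 for CYP1B1, −0.15 to 0.10 for TIPARP, −0.15 to 0.03 for AHR and −0.07 to 0.08 for NQO1. AHRR, with few counts, had the widest at −0.78 to 0.07 log2. The difference between the E2 changes in induced and uninduced cells called TIPARP alone among the members, 1 of 8 where 8.47% of all genes were called (5.66% higher and 2.81% lower). With the block it called 4 of 8 members against 14.7% of all genes (8.86% higher and 5.88% lower), TIPARP higher and CYP1A1, CYP1B1 and NQO1 lower. AHR differed by −0.17 log2 (adjusted p = 0.218, and 0.0519 with the block). It was called without uninduced vehicle replicate 1 (0.0294) and in the later-tag libraries alone (0.0142), and stayed uncalled in the other leave-outs (up to 0.841). AHRR differed by 0.81 log2 (SE 0.31, adjusted p = 0.16, and 0.0529 with the block) and stayed uncalled in every leave-out (0.0725 to 0.687).

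Between file tags, CYP1A1 stood apart from the other members. Later minus earlier libraries, its level was −1.33 log2 in induced E2, −1.23 in induced vehicle, −1.41 in uninduced E2 and −1.69 in uninduced vehicle cells, or 0.375 of the earlier level on average. Among 12376 genes with an average of at least 1 log2 CPM, this was the 2nd lowest mean difference. CYP1B1 followed at −0.39 ± 0.10 log2 (SD over the 4 groups), then AHRR at −0.30 ± 0.16, ALDH3A1 at −0.29 ± 0.03 and TIPARP at −0.18 ± 0.14. AHR, ARNT and NQO1 lay between −0.06 and −0.05 log2. By sign alone, 6 of 8 members were lower under the later tag in all 4 groups, where 15.3% of all tested genes were. These 6 include CYP1A1, and ARNT at a mean of only −0.05 log2. The median over the members was −0.23 log2, beside 0 over all tested genes, whose central 90% ran from −0.28 to 0.34 log2. The members were chosen with the CYP1A1 difference in view, so these are descriptions only. For 0 of 8 members did all 8 later-tag libraries lie below all 4 earlier-tag ones, a pattern of 2.09% of all tested genes, and for 0 did they all lie above (2.73%).

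**Figure D4:**
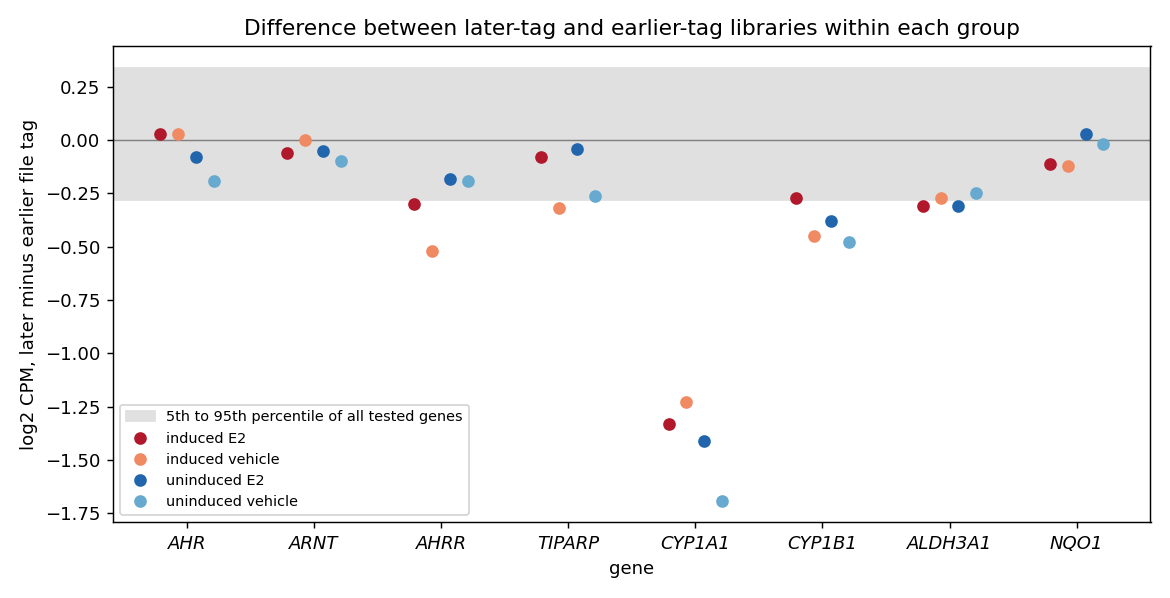
Difference in log2 CPM between the later-tag libraries (mean of 2) and the earlier-tag library within each group, for each gene, with the 5th to 95th percentile of the mean difference over all tested genes as a grey band. CYP1A1 lies at −1.69 to −1.23 log2 in the 4 groups, below the band.

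Other genes of the pathway were counted by lists drawn up with earlier results of these data known. Of 12 genes of the AhR complex and its partners, E2 in induced cells raised 2 and lowered 1 (median −0.02 log2), where 9.85% of all tested genes were called higher and 6.61% lower. HIF1A, the hypoxia factor that also pairs with ARNT, averaged 235 ± 9.65 CPM in induced E2 and 173 ± 8.35 CPM in induced vehicle cells (log2 0.44, SE 0.05, adjusted p = 8.91e-06). The coactivator NCOA1 rose by 0.27 log2, and NCOA2 fell by 0.22 log2. Without E2, doxycycline called 0 of the 12, against 3.81% of all genes (1 with the block, HIF1A at 0.16 log2, adjusted p = 0.0081, against 10%). With E2 it called 2 higher and 1 lower, the last HSP90AB1 at −0.09 log2, against 15% and 13% of all genes (3 and 3 with the block, against 19.1% and 18.2%).

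Of 17 other genes known to be induced through AhR, 11 were tested, and they did not move together. E2 in induced cells raised 3 and lowered 2 (median −0.16 log2), against 9.85% and 6.61% of all tested genes. The amino acid transporter SLC7A5 averaged 1630 ± 200 CPM in induced E2 and 730 ± 111 CPM in induced vehicle cells (log2 1.16, SE 0.12, adjusted p = 8.04e-06), and the scaffold gene NEDD9 rose by 0.79 log2. The exchange factor VAV3 averaged 29.8 ± 5.00 CPM in induced E2 and 70.4 ± 9.66 CPM in induced vehicle cells (log2 −1.24, SE 0.16, adjusted p = 5.65e-05). NFE2L2 fell by 0.32 log2. For doxycycline without E2, 3 rose and 0 fell (median 0.40 log2), against 2.44% and 1.37% of all genes, and 3 and 2 were called with the block, against 5.54% and 4.48%. The rise was led by the cytochrome P450 gene CYP2S1 at 1.35 log2 (SE 0.18, adjusted p = 0.000397). With E2 present 4 rose and 2 fell, against 15% and 13% of all genes, with NEDD9 at 1.23 and VAV3 at −1.41 log2.

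NRF2 targets beside NQO1 were split. Of 21 tested, E2 in induced cells raised 4 and lowered 3 (median 0 log2), where 16.5% of all genes were called, and 7 and 7 with the block, where 23.8% were. Glutathione reductase GSR rose by 0.40 log2 (SE 0.05), SRXN1, which restores peroxiredoxins, by 0.30 and haem oxygenase HMOX1 by 0.28 log2, and NFE2L2, in this list as well as the last, fell. For doxycycline with E2, 4 rose and 5 fell against 28% of all genes called (8 and 6 with the block against 37.3%), with TXNRD1, thioredoxin reductase, at −0.49 log2. Without E2 TXNRD1 fell by 0.27 log2, and the block called 4 higher and 5 lower, where 10% of all genes were called. Among 8 enzymes of the tryptophan to kynurenine route, which yields AhR ligands, 6 were tested. KYNU fell by 0.19 log2 with E2 in induced cells (adjusted p = 0.0459) and rose by 0.24 log2 with doxycycline alone (adjusted p = 0.0483). The others were not called in these comparisons, where 16.5% and 3.81% of all genes were called. Of 15 genes of other cytochrome P450 enzymes and their reductase POR, 7 were tested. Of these, E2 in induced cells raised 1 and lowered 1, against 9.85% and 6.61% of all genes. CYP4B1 averaged 34.5 ± 1.78 CPM in induced E2 and 21.1 ± 1.06 CPM in induced vehicle cells (log2 0.71, SE 0.10, adjusted p = 9.00e-05), while CYP2J2 fell by 0.24 log2. Doxycycline raised 2 and lowered 0 without E2 (CYP4B1 and CYP2J2, at 0.52 and 0.26 log2), against 2.44% and 1.37% of all genes. With E2 it raised CYP4B1 by 1.21 log2 and lowered 0, where 15% of all genes were called higher and 13% lower. CYP2B6 was also called higher there, but it averaged 0.464 ± 0.109 CPM in induced E2 and 0.164 ± 0.0448 CPM in uninduced E2 cells. It thus passed the filter through the induced libraries alone, so it is not set against those shares and no fold change is given for it. E2 in uninduced cells called 0 members of each of these lists, in both fits.

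The genes whose profile over the 12 libraries was most like that of a member were ranked by the root mean square difference between log2 CPM profiles centred on their own means, among 12375 candidates, as a description. CPA4, a carboxypeptidase, was nearest to CYP1A1 at 0.362 log2, followed by the adhesion molecule L1CAM at 0.397, the thyroid hormone receptor THRB at 0.437, the collagen COL5A2 at 0.45 and NEXN at 0.452. A flat profile would lie 0.874 log2 from CYP1A1. CPA4 averaged 23.2 CPM in induced E2, 31.8 in induced vehicle, 36.5 in uninduced E2 and 36.7 in uninduced vehicle cells, and differed by −1.04 log2 between tags, later minus earlier. L1CAM differed by −1.59 log2 between tags. CYP1B1 was most like the ubiquitin ligase NEDD4 at 0.0863 log2, then ATP2B1 at 0.0885 and CPEB2 at 0.0948. TIPARP was most like RUSC2 at 0.0662, C16orf74 at 0.0724 and the transcription factor FOXO3 at 0.0748. NQO1, whose own root mean square deviation from its mean was only 0.0775 log2, was most like PTRHD1, S100A6 and PCTP at 0.0404 to 0.044 log2.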

How the data were processed

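Each of the 12 deposited files holds RSEM expected counts per gene symbol and, in a second column, the fraction of transcripts per gene, which the authors' deposited values make sum to 1 in each library. RSEM 1.1.16, DESeq 1.7.10 and hg19 are named in the submitters' processing notes, and the aligner was not given in the sources used here. Libraries were made with TruSeq V2 from total RNA, per the labels. Groups came from sample titles.

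Expected counts were rounded and analysed in R 4.3.3 with edgeR 4.0.16 (filterByExpr, minimum count 10 and minimum total 15, TMM scaling, quasi-likelihood test, 1 mean per group, 8 residual degrees of freedom). CPM are TMM-scaled, and log2 CPM used a prior count of 2. Adjusted p-values cover all tested genes. TPM is the deposited fraction rescaled to the usual TPM total. Fold changes are fitted values, with SE taken from the fold change and its test statistic. The code was tested on simulated data.

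Deviations from group means correlated at 0.104 to 0.464 between same-numbered libraries (18 pairs, 12376 genes, median 0.246). Between differently numbered libraries they correlated at −0.427 to 0.278 (36 pairs, median −0.22), so the ranges overlapped. Replicate 1 alone carries the earlier tag, so this check cannot tell pairing by replicate number from a difference between tags. The blocked fit had 6 residual degrees of freedom, with a biological coefficient of variation of 2.90% against 5.34% without it. No 2 replicates differed by less than counting noise. Alternatives were DESeq2 1.42.0, limma 3.58.1 (voom), other scalings and filters, fits to the compared groups alone, a threshold of 0.01, and each library or replicate number left out. The fit to the later-tag libraries alone is that without replicate 1, with 2 libraries per group.

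All members, ESR2, up to 4 called genes of each list per comparison (up to 2 where none was called) and the most similar profiles were eligible to be named. CYP1A2 and PDCD6 were named for their sequence or position, cell markers to check the line, and genes of the closing section after their values were seen. Members and lists were chosen with earlier results of these data known. Some genes of the lists are counted but not reported by name here.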

Additional observations from a re-analysis of the deposited data

Results flagged for a closer look

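The change with E2 differed between induced and uninduced cells, by a test of the difference itself, for 1 of the 8 genes without the replicate block, where 8.47% of all tested genes were called, and for 4 of 8 with it, where 14.7% were. For TIPARP it was 0.93 log2 (edgeR, adjusted p = 0.000103), with the change higher in induced cells in 3 of 3 numbered sets. For CYP1A1 it was −0.59 log2 (adjusted p = 0.000663 with the replicate block), lower in 3 of 3 sets. For CYP1B1 it was −0.43 log2 (adjusted p = 3.32e-06 with the block), also lower in 3 of 3 sets. For NQO1 it was −0.17 log2 (adjusted p = 0.022 with the block), again lower in 3 of 3 sets. Without the block the last 3 were not called. AHR (−0.10, −0.11 and −0.31 log2) and AHRR (0.64, 1.34 and 0.40 log2), called in neither fit, also kept their sign in 3 of 3 sets. The share of all tested genes with such agreement was not counted.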

How the results depend on the processing

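TIPARP kept its call in all alternatives run for E2 in induced cells, doxycycline with E2 and the difference of the E2 changes (adjusted p up to 0.00188, 0.000128 and 0.0243), and so did AHR for doxycycline with E2 (up to 0.00581). With the replicate block, members called went to 5 from 3 for E2 in induced cells, 5 from 2 for doxycycline without E2 and 4 from 1 for the difference, and genes called to 1456 from 554 and to 2143 from 1232 for the last 2. The block changed no call that was made without it among the members. At an adjusted p under 0.01, genes called were 1528, 296 and 696 for these 3 comparisons, and 0 members for doxycycline without E2. For E2 in uninduced cells DESeq2 called 1 gene. Sign changes were all in uncalled values. ALDH3A1 with E2 in induced cells was −0.02 log2 with upper-quartile scaling, and it was 0 with the block there, in uninduced cells and for the difference. In uninduced cells CYP1A1 was −0.08 with DESeq2 and −0.01 with the block, and CYP1B1 0.01 with limma-voom. Leaving out 1 library or replicate number gave 990 to 3391 genes and 1 to 5 members called for E2 in induced cells, 106 to 1082 and 0 to 4 for doxycycline without E2, and 2054 to 5064 and 2 to 6 for doxycycline with E2. It gave 0 to 1 genes and 0 members for E2 in uninduced cells, and 306 to 2105 genes and 1 to 5 members for the difference. The lowest counts came without replicate 3 and the highest without replicate 1 for the gene counts other than E2 in uninduced cells, and the cause was not tested. Uncalled log2 values that changed sign ranged from −0.09 to 0.12 for ALDH3A1 with E2 in induced cells. For doxycycline without E2 they ranged from −0.04 to 0.01 for ARNT, −0.47 to 0.21 for AHRR and −0.18 to 0.15 for CYP1B1. For E2 in uninduced cells they ranged from −0.53 to 0.68 for CYP1A1, −0.15 to 0.16 for CYP1B1, −0.07 to 0.04 for TIPARP, −0.07 to 0.11 for ALDH3A1 and −0.03 to 0.02 for NQO1. For the difference ALDH3A1 ranged from −0.11 to 0.10. AHRR had 23.0 to 77.9 counts per library, the fewest of the members.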

Other observations

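Between file tags, the other lists were not tested and did not move alike. Of 11 tested genes known to be induced through AhR, 6 were lower under the later tag in all 4 groups and 1 was higher (median −0.35 log2), where 15.3% of all tested genes were lower and 16.9% higher in all 4. STC2 stood at −0.45, VAV3 at −0.40 and SLC7A5 at −0.31 log2. The higher gene, SERPINB2, averaged only 0.231 to 0.537 CPM by group and was at 0 in 1 library, so no difference is given for it. Of 12 genes of the AhR complex and its partners, 0 were lower and 7 higher against the same shares (median 0.06 log2). The largest difference was that of ARNT2, a relative of ARNT, at 0.73 log2, but it averaged only 2.25 to 2.57 CPM by group. The 21 NRF2 targets had 7 lower and 6 higher (median −0.03 log2).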
